A study of Danio rerio with 32 samples.

Results

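The untreated gastrula transcriptome of the zebrafish was described from the 8 control libraries among the 32 libraries of the series, chosen by their label and title alone. Each control library was made from polyadenylated RNA of whole embryos with a strand-specific kit. The embryos received no test compound and were kept in Dutch standard water with 0.01% DMSO, which the labels spell DSMO, from 3 h to 7 h after fertilization. The other 24 libraries, from embryos given all-trans retinoic acid, valproic acid or folic acid in the same water over the same 4 h, were not compared here. The strain, the number of embryos in a library and the number of clutches are not stated. The titles of the control libraries carry the numbers 1, 2, 13, 14, 25, 26, 37 and 38, which are replicates 1 to 8 below. These numbers form 4 sets of 2 libraries (1-12, 13-24, 25-36 and 37-48), and what a set stands for is not stated.

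At this age the zebrafish embryo is in early gastrulation. The transcripts loaded into the egg are being cleared while the embryo's own genome is read, the germ ring cells roll inward to form mesoderm and endoderm, and the dorsal organizer and the ventral BMP source set up the body axes. A flat surface epithelium, the enveloping layer, covers the blastoderm, a syncytial layer lies on the yolk below, and a few primordial germ cells hold inherited germ plasm.

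The deposited table gave a normalized log2 level for 15710 Ensembl genes. A difference of 1 in log2 level is a 2-fold difference. Mean levels over the 8 libraries ran from 1.13 to 19.29, with a median of 7.83 and with the middle 50% of genes between 5.65 and 9.81. The levels are not divided by transcript length, so a rank or percentile below places a gene by its reads and not by its number of molecules. Every library has nearly the same set of values, so a gene's level mainly records its rank within the library, and a change in total RNA would not be seen. The 10 highest genes held 10.6% of the summed linear value, the highest 100 held 27.8% and the highest 1000 held 62.1%. The common set of values fixes these shares, so they are no separate measurement in each library. For the highest 100 the SD over the 8 libraries was 0.000109 percentage points. Of the highest 100 genes, 83 were among the highest 100 in every library. An identifier without a name held rank 1, followed by eef1a1l1, a translation elongation factor gene at 18.60 ± 0.33 (SD, n = 8), and hmga1a, a chromatin architectural protein gene that held the same rank in all 8 libraries at 18.07.

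Genes are described in 28 lists of known roles, with 826 distinct measured genes. Names are spelled as in the identifier table used, which writes many zebrafish genes in capitals, and such a capital name does not say which zebrafish paralog is meant. Counts of near-identical genes are uncertain, because their reads may have been dropped or split in the counting. The lists of protein synthesis and chromatin had the highest median levels, as the plot of levels by list shows. The median gene of the large ribosomal subunit list stood at 12.75, which is the 96.6th percentile of all genes, and that of the transcription and chromatin list at 12.32. At the other end stood the hindbrain, Hox and Cdx list at 5.64 and the markers of differentiated tissues at 5.16.

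**Figure D1:**
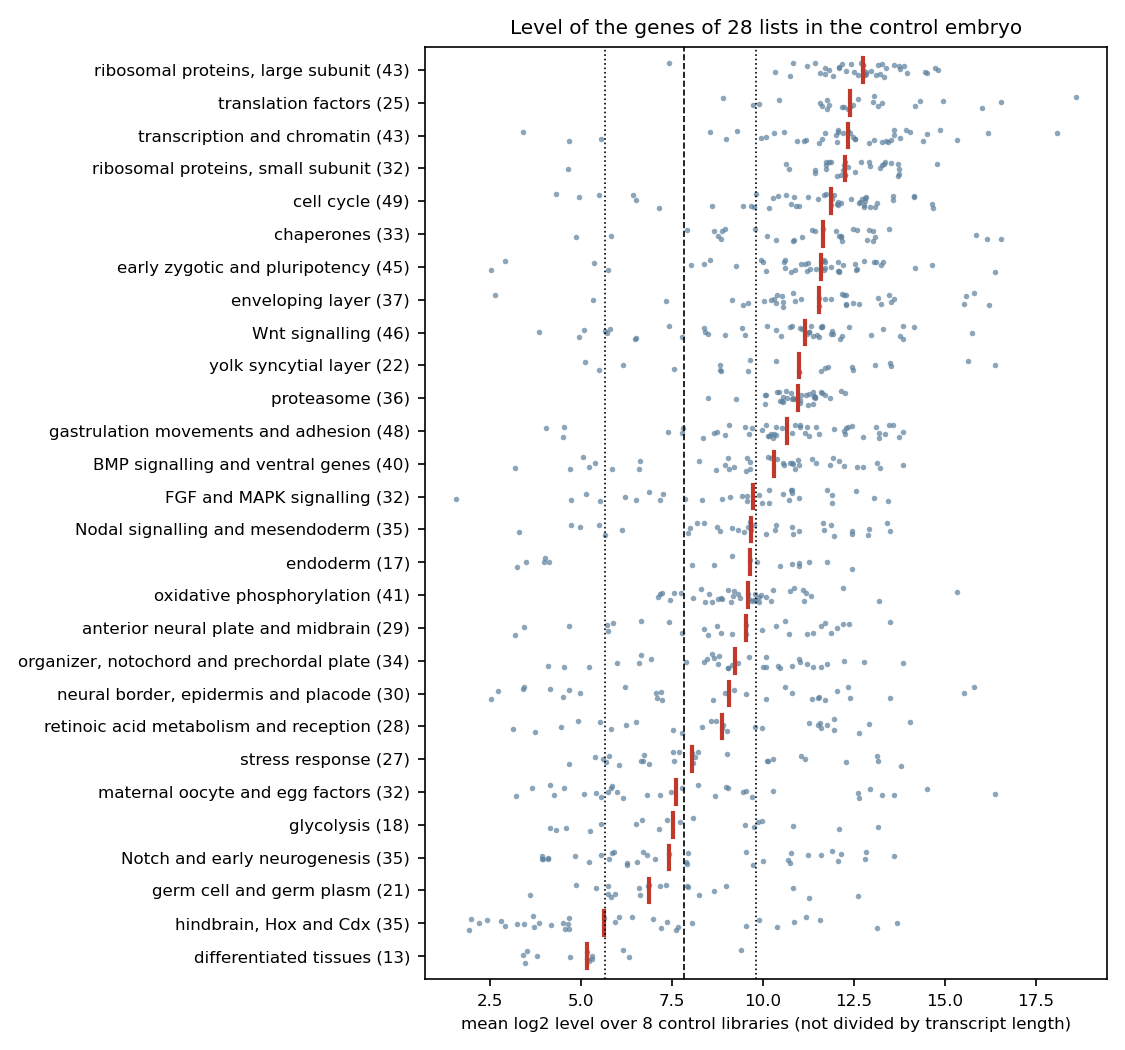
Mean log2 level over the 8 control libraries (x axis, not divided by transcript length) of each measured gene (points) in 28 lists (rows, number of genes in brackets), with the list median as a red bar. The dashed line is the median of all genes at 7.83 and the dotted lines are the quartiles at 5.65 and 9.81. The medians run from 5.16 for differentiated tissues to 12.75 for the large ribosomal subunit.

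Markers of the cell types that the label implies were present. Members and lists were chosen with earlier results of these data known, and only genes kept in the deposited table are counted. The counts are therefore a description. All 12 enveloping layer markers, all 10 organizer and axial mesoderm genes, all 6 endoderm genes, all 8 ventral and epidermal genes and all 5 ventrolateral mesoderm genes measured lay above the median gene. So did the 5 neural plate genes measured, while hesx1 and her3 were not measured here. The 9 organizer and axial mesoderm names matched 10 genes and the 5 endoderm names matched 6, since a name can match 2 paralogs. The endoderm genes include both genes named CXCR4, and which of them is the marker was not settled. Of 6 germ cell markers, 3 lay above the median gene, and of 6 yolk syncytial layer markers measured, 5 did. The yolk syncytial layer marker mxtx2 was not measured here. In RNA from whole embryos, fewer cells of a type and less RNA per cell cannot be told apart. Of 57 names of differentiated tissue markers, 13 were measured, and 10 of these fell in the lowest 25% of genes. The only gene of the 13 above the median gene was FABP2, the intestinal fatty acid binding protein gene, at 9.39 ± 0.81, with a lowest library at 7.78 in replicate 1 and the highest libraries at 10.10 in replicates 3 and 4.

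Genes of the maternal list ran over most of the scale. RNA loaded into the egg and RNA made by the embryo cannot be told apart here. YBX1, which binds and represses maternal messages, stood at 16.38 ± 0.10 and PNRC2, a factor of mRNA decay, at 14.52 ± 0.32. The RNA-binding protein genes IGF2BP3 (12.63 ± 0.10) and CELF1 (12.61 ± 0.22) were also in the top 10% of genes. Genes known mainly from the oocyte did not all lie together. The 3 zona pellucida genes of the egg coat had a median level of 9.03 and ran from 5.55 to 9.54. Others were at the low end. MOS, the kinase of meiotic arrest, stood at 3.22 ± 0.85, bmp15 at 3.64 ± 1.23 and BTG4, an adaptor of maternal mRNA deadenylation, at 4.15 ± 0.68. Of the 32 genes measured on the maternal list, 15 lay above the median gene and 8 in the lowest 25%.

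The germ plasm list had a median of 6.86, below the median gene. DDX4, the vasa RNA helicase, was its best known member in the upper range, with 10.31 in the lowest library, a median of 10.75 and 11.45 in the highest (10.83 ± 0.34). NANOS3, a translational repressor needed for germ cell survival, ran from 7.20 in replicate 7 to 8.30 in replicate 2. DND1, which protects germ cell transcripts, ran from 6.15 to 7.46 (6.84 ± 0.43), and buc, which organizes germ plasm in the oocyte, from 4.70 to 6.17 (5.41 ± 0.56). The highest DDX4 value was that of replicate 1 and the lowest that of replicate 3.

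Most genes that start zygotic transcription or are first read from the zygotic genome were high. The pluripotency factor pou5f3 stood at 13.70 in the lowest library, 14.11 at the median and 14.74 in the highest (14.17 ± 0.35). Its partner nanog stood lower, at 8.54 ± 0.42 and the 59.0th percentile, and sox19b at 11.03 ± 0.18. Both pou5f3 and nanog had their highest value in replicate 1 and their 2 lowest in replicates 3 and 4. In contrast, sox19b was lowest in replicate 1 (10.78) and highest in replicate 4 (11.28). The early zygotic list as a whole had neither pattern, with median deviations of -0.01, 0.01 and -0.05 in replicates 1, 3 and 4. The ventral homeobox repressors ved (12.59 ± 0.18), vox (12.07 ± 0.15) and vent (10.58 ± 0.23), the zinc finger gene SALL4 (14.65 ± 0.15) and the peptide ligand apela (11.15 ± 0.21) with its receptor aplnrb (11.45 ± 0.15) were all in the top 20% of genes. Of the 45 genes on this list, 41 lay above the median gene and 24 in the top 10%. The 2 lowest were MYC (ENSDARG00000045695) at 2.92 ± 1.49 and sox21a at 2.51 ± 1.44.

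Nodal ligand, co-receptor, effector and inhibitor genes were measured, while the receptor genes acvr1ba, acvr1bb, acvr2aa and acvr2ba were not measured here. The ligand gene ndr2 ran from 8.27 to 9.42 (8.81 ± 0.38), and gdf3, the Vg1 partner of Nodal, from 7.81 to 9.89 (8.72 ± 0.76). The co-receptor tdgf1 stood at 11.66 ± 0.28 and the nuclear effector foxh1 at 11.65 ± 0.31. The feedback inhibitors lft1 (9.57 ± 0.21) and lft2 (9.46 ± 0.20) had nearly the same spread. The ligand ndr1 was not measured here. Among the mesendoderm targets, the T-box gene tbx16 stood at 13.41 ± 0.18, msgn1 at 12.88 ± 0.27 and the endoderm determinant sox32 at 10.80 ± 0.28, with its target SOX17 at 9.63 ± 0.16. The homeobox gene mixl1, an immediate Nodal target, had values of 8.82, 8.68 and 8.85 in replicates 1, 5 and 6 and at most 7.75 in the others. Replicates 1, 5 and 6 also had the 3 highest gdf3 values, at 9.43, 9.37 and 9.89.

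Organizer and midline genes lay between 4.08 and 13.84. The BMP antagonist chrd, the defining secreted factor of the organizer, was steady, with 13.68 in the lowest library and 14.10 in the highest (13.84 ± 0.13). The notochord T-box gene tbxta stood at 12.78 ± 0.22, the notochord homeobox gene noto at 10.08 ± 0.31 and the prechordal plate gene GSC at 9.30 ± 0.28. The winged helix genes foxa3 (11.75 ± 0.13) and FOXA2 (10.47 ± 0.11) varied less than most members. Follistatin, FST, another BMP and activin binding protein gene, varied far more. It had values of 10.11 and 10.12 in replicates 3 and 4, 9.45 in replicate 2 and 7.99 to 8.85 in the other 5 libraries (9.04 ± 0.78). The SD of FST was 3.68 times the median SD of genes at its level, against 1.02 times for chrd.

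The ventral signal had ligand, receptor, antagonist and target genes in the upper range. The ligand genes bmp7a (11.45 ± 0.25), BMP2 (10.88 ± 0.18) and BMP4 (10.21 ± 0.24), the type I receptor acvr1l (12.75 ± 0.20) and the transducer SMAD5 (11.82 ± 0.11) were all above the 75th percentile. The type II receptor name BMPR2 matched 2 genes, ENSDARG00000011941 at 5.84 ± 0.36 and ENSDARG00000020057, which ran from 1.75 to 4.50. The feedback antagonist szl ran from 9.01 to 10.05 (9.51 ± 0.36). The target ID1 stood at 13.20 ± 0.12 and the ventral ectoderm gene GATA2 at 11.93 ± 0.09. Of the 40 genes measured, 32 lay above the median gene. The list's median deviation stayed between -0.09 and 0.08 in log2 level in all 8 libraries. Such a median hides the spread of single genes, and 13 of the 40 ranged more than 2-fold. The median SD of the list was 0.24. The ectoderm genes TP63 and DLX3, which mark epidermis and its border with the neural plate, had larger SDs than that. TP63 ran from 8.44 in replicate 1 to 10.26 in replicate 4 (9.53 ± 0.66) and DLX3 from 10.69 in replicate 5 to 12.24 in replicate 3 (11.50 ± 0.58).

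The Wnt list had a median of 11.14, and 18 of its 46 genes were in the top 10%. The transducers CTNNB1 (15.73 ± 0.16) and ctnnb2 (14.15 ± 0.18), the receptor genes named FZD7 (ENSDARG00000060004 at 13.77 ± 0.07 and ENSDARG00000027589 at 13.28 ± 0.11) and the planar polarity gene VANGL2 (13.84 ± 0.04) were among them. VANGL2 had an SD of 0.32 times that of genes at its level. Among the ligands, WNT5B, which acts in convergence and extension movements, stood at 10.80 ± 0.17, WNT8B from 6.38 in replicate 1 to 8.42 in replicate 3, and WNT3A at 5.78 ± 0.87. The ligands wnt8a and wnt11 were not measured here.

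Several genes of the FGF pathway were steady. The receptor fgfr4 ran from 13.35 to 13.55 (13.43 ± 0.06) and the membrane antagonist IL17RD from 10.93 to 11.05. The phosphatase DUSP6, a direct readout of the pathway, ran from 12.41 to 12.69 (12.56 ± 0.09) and the ETS target etv5b stood at 13.04 ± 0.08. The ligand FGF8 ran from 10.34 to 10.96 (10.71 ± 0.22), with an SD of 1.47 times that of genes at its level. FGF3 stood at 7.25 ± 0.47. The median member of this list had 0.96 times the SD of genes at its level, and 10 of its 32 genes ranged more than 2-fold.

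The main enzymes that make and break down retinoic acid were in the top 10% of genes. ALDH1A2, which makes retinoic acid, ran from 11.80 to 12.18 (11.96 ± 0.14), and CYP26A1, which breaks it down, from 12.67 to 13.03 (12.91 ± 0.11). The retinol dehydrogenase name RDH10 matched ENSDARG00000012369 at 11.93 ± 0.15 and ENSDARG00000058730 at 11.74 ± 0.08. Of the receptors, rarab stood at 11.55 ± 0.15, raraa at 9.98 ± 0.23 and RARG at 8.86 ± 0.55. RARG ran from 7.99 in replicate 1 to 9.67 in replicate 4. CYP26C1, another enzyme that breaks retinoic acid down, stood at 6.23 ± 0.69.

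Neural genes ranged from steady to variable. The SoxB1 genes sox19a (13.28 ± 0.07), SOX3 (12.06 ± 0.13) and SOX2 (11.59 ± 0.19) and the forebrain and midbrain gene otx2a (11.60 ± 0.11) varied little. The gene named OTX2 (ENSDARG00000011235) ran from 10.85 in replicate 1 to 11.74 in replicate 4 (11.36 ± 0.30). Its SD was 2.07 times that of genes at its level. Regional factors of the anterior plate varied much more than the SoxB1 genes. The eye field gene rx3 had values of 7.46, 9.29, 9.75, 9.68, 8.25, 8.09, 9.04 and 9.26 in replicates 1 to 8 (8.85 ± 0.82). SIX3 (ENSDARG00000054879) ran from 8.20 in replicate 1 to 10.25 in replicate 3, FEZF2 from 8.78 in replicate 1 to 10.61 in replicate 3 and DMBX1 from 6.01 in replicate 1 to 9.02 in replicate 3. For these 4 genes the lowest library was replicate 1 and the highest was replicate 3. LHX2, a later forebrain gene, was at the lowest value of 3 libraries and reached 7.48 in replicate 3 and 7.11 in replicate 4. Of the 29 anterior neural genes, 11 had an SD of more than 2 times that of genes at their level, against 806 of all 15710 genes.

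The Hox genes encode homeodomain proteins that give position along the trunk, and in vertebrates they are switched on in order during gastrulation and after. In the control embryos they were low and varied most of all lists. Of 21 Hox cluster genes measured, hoxb1b was at the 85.7th percentile and 14 lay in the lowest 25% of genes, with 6 at the lowest value of at least 1 library. The values of hoxb1b in replicates 1 to 8 were 9.90, 11.06, 11.48, 11.40, 10.28, 10.31, 10.98 and 11.28 (10.84 ± 0.59). For HOXB9 they were 5.59, 7.91, 8.52, 8.28, 5.92, 5.09, 6.82 and 7.57. For hoxc3a they were 5.68, 8.61, 9.14, 9.16, 6.21, 6.46, 7.46 and 8.10. Each of these genes was highest in replicates 3 and 4, next in replicates 2 and 8, and lowest in replicates 1, 5 and 6, and the plot of 12 genes by library shows the same order.

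All 21 Hox cluster genes lay above their own mean in replicates 3 and 4, none did in replicates 1 and 5, and 3 did in replicate 6. For comparison, between 7849 and 8368 of all 15710 genes lay above their own mean in each library. The whole hindbrain, Hox and Cdx list of 35 genes had a median SD of 1.09, or 2.01 times that of genes at the same level, and its median deviation ran from -1.17 in replicate 1 to 1.26 in replicate 3. Leaving out any library in turn gave a median SD between 0.993 and 1.16. Members above the median gene varied in different ways. The Hox cofactor meis3 ran from 8.57 in replicate 1 to 10.22 in replicate 3, while the caudal gene cdx1a ran from 10.96 in replicate 1 to 12.13 in replicate 8. As for the Hox genes, the lowest cdx1a values were those of replicates 1, 5 and 6 (10.96, 11.04 and 11.06). The cofactor pbx4 was steady, at 13.69 ± 0.10. Relative depth, counted as the distinct values below a library's lower quartile, was 36, 47 and 19 in replicates 1, 5 and 6, where Hox genes were lowest, and 23 and 38 in replicates 3 and 4, where they were highest. The part of depth in this was not tested.

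**Figure D2:**
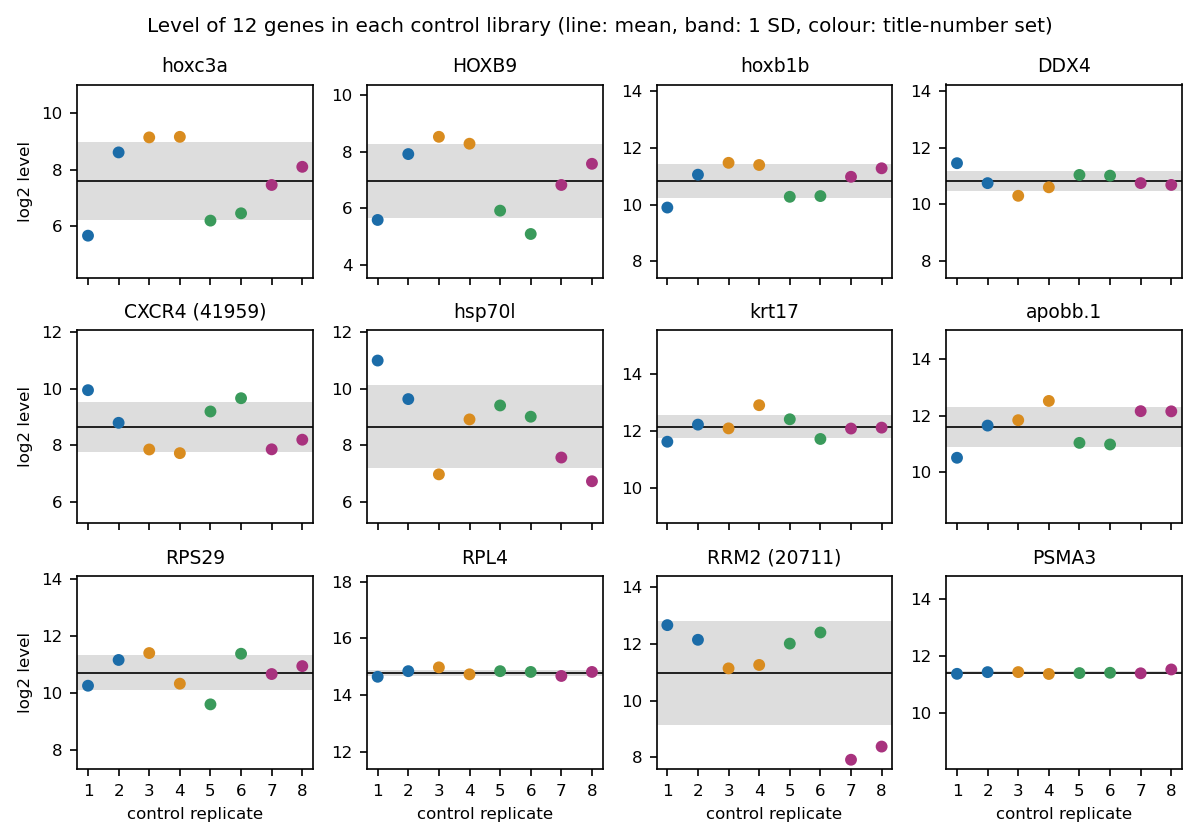
Log2 level (y axis, the same span of 6.8 in each panel) of 12 genes in control replicates 1 to 8 (x axis), with the mean as a line, 1 SD as a band and the title-number set as colour. The numbers in brackets are the last digits of the Ensembl identifier. The Hox genes are lowest in replicates 1, 5 and 6, CXCR4 is highest there, RRM2 is low in replicates 7 and 8, and PSMA3 and RPL4 hardly move.

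Germ plasm genes, and more weakly maternal genes, differed between the libraries partly the other way. The maternal list had median deviations of 0.24 and 0.27 in replicates 1 and 6 and -0.36 in replicate 4. It was near its mean in replicates 3 (-0.05) and 5 (0.05). The germ plasm and maternal lists were lower in replicate 7 (-0.21 and -0.14) than in replicate 3 (-0.15 and -0.05), where Hox genes were high. Of the 21 germ plasm genes, 20 lay above their own mean in replicate 1, 14 in replicate 5 and 17 in replicate 6, and 3 did in replicate 4. The list's median deviation ran from -0.33 in replicate 4 to 0.58 in replicate 1. PIWIL1, a piRNA-binding Argonaute, ran from 5.85 in replicate 4 to 8.06 in replicate 1. The oocyte linker histone h1m ran from 7.90 in replicate 4 to 9.92 in replicate 6. The chemokine receptor name CXCR4 matched ENSDARG00000041959, which ran from 7.72 in replicate 4 to 9.94 in replicate 1 (8.65 ± 0.87), and ENSDARG00000057633, which ran only from 11.01 to 11.54 (11.26 ± 0.19). The RNA polymerase III subunit gene polr3gla, at 12.77 ± 0.52, is on the early zygotic list and had its highest values in replicates 6 and 1 and its lowest in replicate 4. The early zygotic list itself moved little, with median deviations of 0.07, -0.01 and -0.05 in replicates 6, 1 and 4. The plot of list deviations sets these lists side by side.

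**Figure D3:**
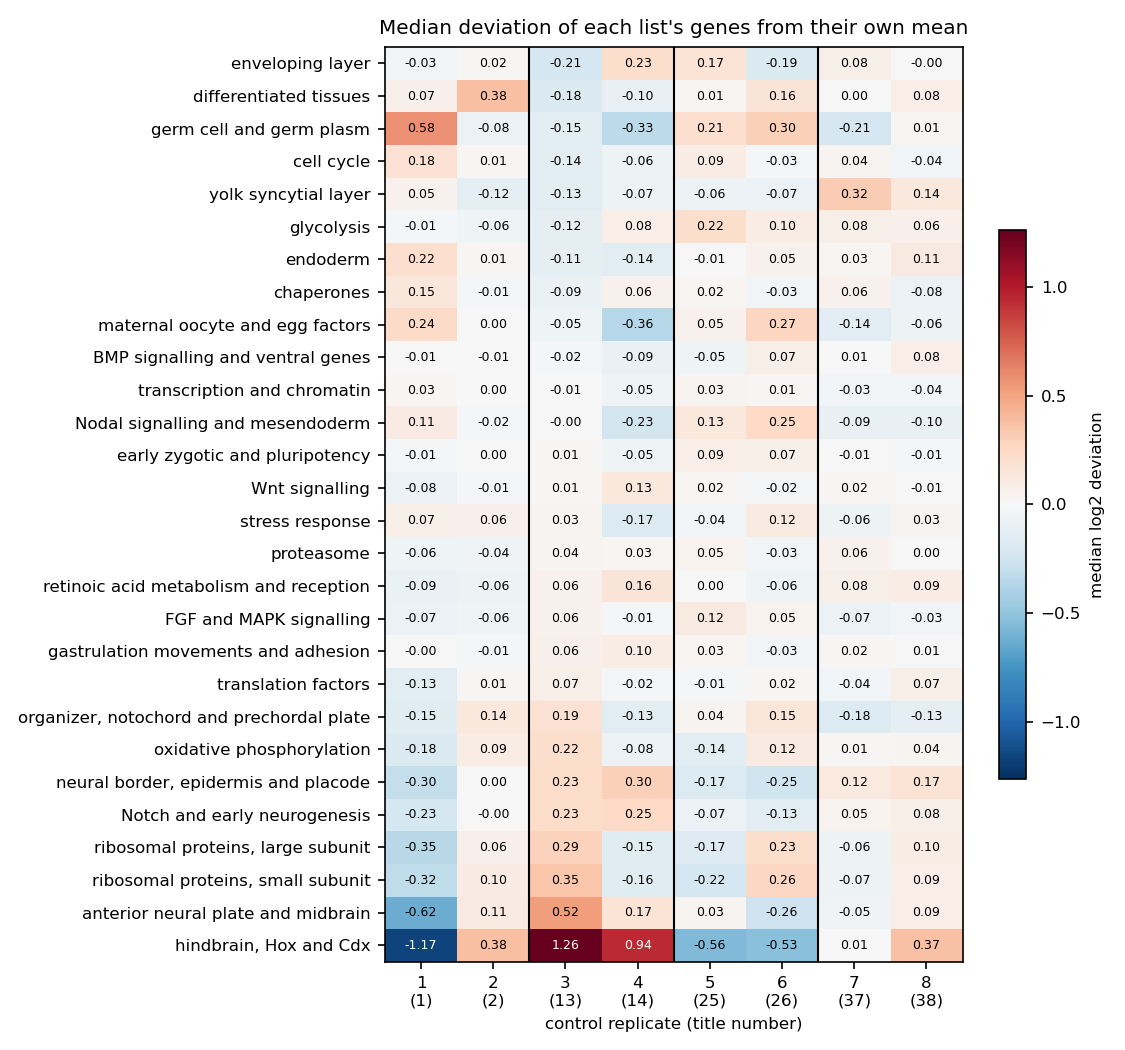
Median over the genes of each list (rows) of the log2 deviation from each gene's own mean over the 8 libraries, in each control library (columns, title number in brackets, black lines between title-number sets). The hindbrain, Hox and Cdx list runs from -1.17 to 1.26, the germ cell and germ plasm list from -0.33 to 0.58, and the proteasome list stays between -0.06 and 0.06.

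The Notch list joined high pathway genes to low neuronal genes. The receptor NOTCH1 (ENSDARG00000103554) stood at 13.61 ± 0.13, the ligand dlc at 11.89 ± 0.13 and MIB1, the ubiquitin ligase that activates the ligands, at 12.82 ± 0.13. The segmentation clock genes her1 (10.51 to 10.94) and her7 (9.80 to 10.22) were steady as well. The proneural gene neurog1 had values of 4.98 to 5.57 in replicates 1, 5 and 6 and of 6.31 to 7.67 in the other 5 libraries (6.25 ± 0.86). The neuronal gene ELAVL3 ran from 3.95 in replicate 6 to 6.95 in replicate 3. Both genes were highest in replicates 3 and 4, as were rx3 and hoxb1b.

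Genes of cell movement and adhesion had a median level of 10.66, and 42 of 48 lay above the median gene. The cadherins CDH2 (13.47 ± 0.16) and cdh1 (12.27 ± 0.11), which hold the cells of the blastoderm together, and the snail repressor snai1a (12.44 ± 0.21), which acts in mesendoderm migration, were in the top 10%. The Apelin receptor genes aplnrb (11.45 ± 0.15) and aplnra (11.19 ± 0.10) varied little. The adhesion gene CDH11 varied far more, from 6.36 in replicate 1 to 8.86 in replicate 3 and 8.81 in replicate 4 (7.76 ± 0.84).

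Enveloping layer genes were high as a list, with a median of 11.54 and 20 of 37 genes in the top 10%. The keratin krt4 ran from 16.01 to 16.52 (16.20 ± 0.17), and krt5 (15.79 ± 0.25) and krt8 (15.57 ± 0.24) were also in the top 1% of genes. Keratins moved together: all 8 measured lay above their own mean in replicates 4 and 5, and none did in replicates 1, 3, 6 and 8. The largest spread among them was that of krt17, from 11.63 in replicate 1 to 12.92 in replicate 4 (12.16 ± 0.40). The tight junction gene cldne (13.25 ± 0.12) and the surface antigen gene lye (13.45 ± 0.10) varied less. Fibronectin and laminin genes, which build the matrix for migrating cells, also had their highest value in replicate 4 in 4 of 4 genes. FN1 (ENSDARG00000019815) ran from 13.12 to 14.25 and LAMB1 from 13.29 to 14.29.

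The yolk syncytial layer list holds genes of lipoprotein export. The lipid transfer protein gene MTTP stood at 13.48 ± 0.33, apoa1b at 13.50 ± 0.35 and apobb.1 at 11.60 ± 0.70. All 7 apolipoprotein genes measured lay above their own mean in replicates 7 and 8, and none did in replicate 5. The values of apobb.1 in replicates 1 to 8 were 10.51, 11.65, 11.84, 12.51, 11.04, 10.98, 12.15 and 12.15. The homeobox regulator mxtx1, which marks this layer, ran only from 8.53 to 9.11 (8.81 ± 0.19), with its highest value in replicate 1.

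Of the 49 cell cycle genes, 43 lay above the median gene. The replication factors PCNA (14.16 ± 0.08) and MCM7 (14.13 ± 0.08), the cyclin CCND1 (14.64 ± 0.20) and the proliferation marker mki67 (14.66 ± 0.15) were in the top 1% of genes. The cell cycle list lay above its own mean in 42 of 49 genes in replicate 1 and in 10 of 49 in replicate 3. Of 18 glycolysis genes 8 lay above the median gene, with ALDOA at 13.14 ± 0.10 and LDHB at 12.09 ± 0.16, against LDHA at 6.51 ± 0.25 and ALDOC at 4.58 ± 0.94. The cell cycle inhibitor gene cdkn1a stood at 5.61 ± 0.25.

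Ribosomal protein genes were high and moved as a block. Of the 75 genes of both subunits, 75 lay above their own mean in replicate 3, 74 in replicate 6, 73 in replicate 8 and 64 in replicate 2, against 1 in replicate 1, 2 in replicate 4, 11 in replicate 7 and 12 in replicate 5. The deviations were small for most in log2 level, with a median SD of 0.24, and 11 of the 75 ranged more than 2-fold. For their level these genes were variable. The median member had 1.83 times the SD of genes at its level in the small subunit list and 1.67 times in the large. RPL4 had the smallest SD of the 75 and ran from 14.65 to 14.98 (14.80 ± 0.11). RPS29 ran from 9.60 in replicate 5 to 11.41 in replicate 3 (10.72 ± 0.63) and RPL38 from 9.85 in replicate 5 to 11.45 in replicate 6 (10.81 ± 0.54). Relative depth split the libraries the same way. Both subunits lay above their mean in the 4 libraries with 19 to 30 distinct values below the lower quartile and below it in the 4 with 36 to 47, with median deviations of 0.06 to 0.35 and of -0.35 to -0.06. Within these groups the deviations did not follow depth in order, and its part was not tested. Respiratory chain genes showed a smaller shift, from -0.18 in replicate 1 to 0.22 in replicate 3.

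**Figure D4:**
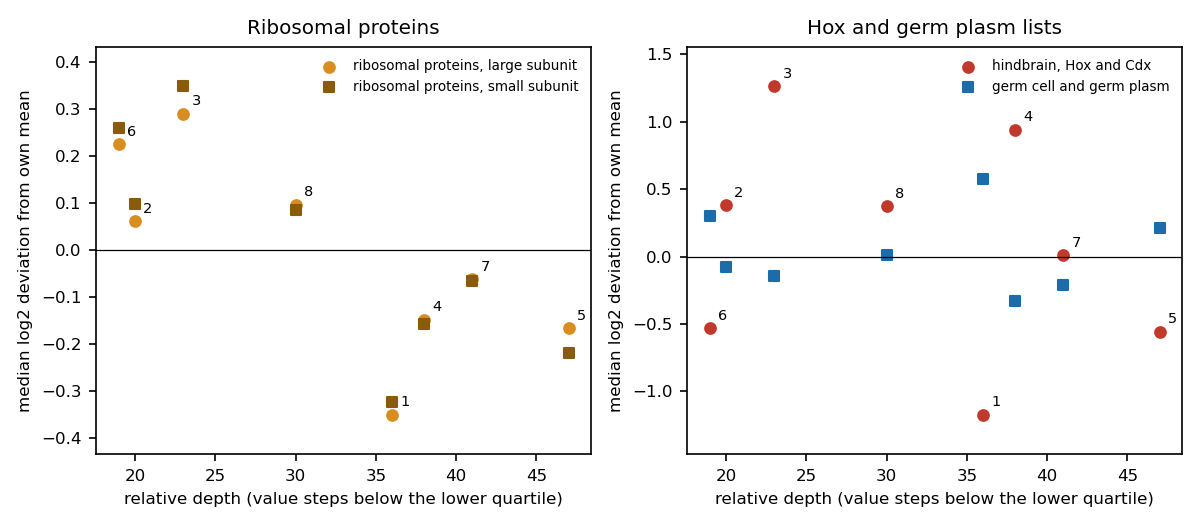
Median log2 deviation of a list's genes from their own mean (y axis) against the relative depth of each control library (x axis, number of distinct values below the lower quartile), with the replicate number beside the round points. Both ribosomal subunits lie above 0 in the 4 libraries with 19 to 30 steps and below 0 in the 4 with 36 to 47, while the Hox and germ plasm lists show no such split.

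Across all genes the SD over the 8 libraries had a median of 0.307 in log2 level and depended on level. In the lowest 10% of genes the median SD was 1.01 and in the highest 10% it was 0.136. The highest and the lowest library were more than 2-fold apart for 44.7% of genes, and for 11.2% of the 7855 genes in the upper part of the scale. The tightest lists were the proteasome, with a median SD of 0.109 and 0.75 times that of genes at the same level, and transcription and chromatin, at 0.130 and 0.82 times. PSMA3, a core particle subunit, ran from 11.36 to 11.52 (11.41 ± 0.05), and the deacetylase HDAC1 from 14.47 to 14.58 (14.50 ± 0.04). Among named genes above the median gene, the smallest SD after those fixed by a constant rank was that of kmt2ba, a histone methyltransferase gene, from 11.92 to 11.99.

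**Figure D5:**
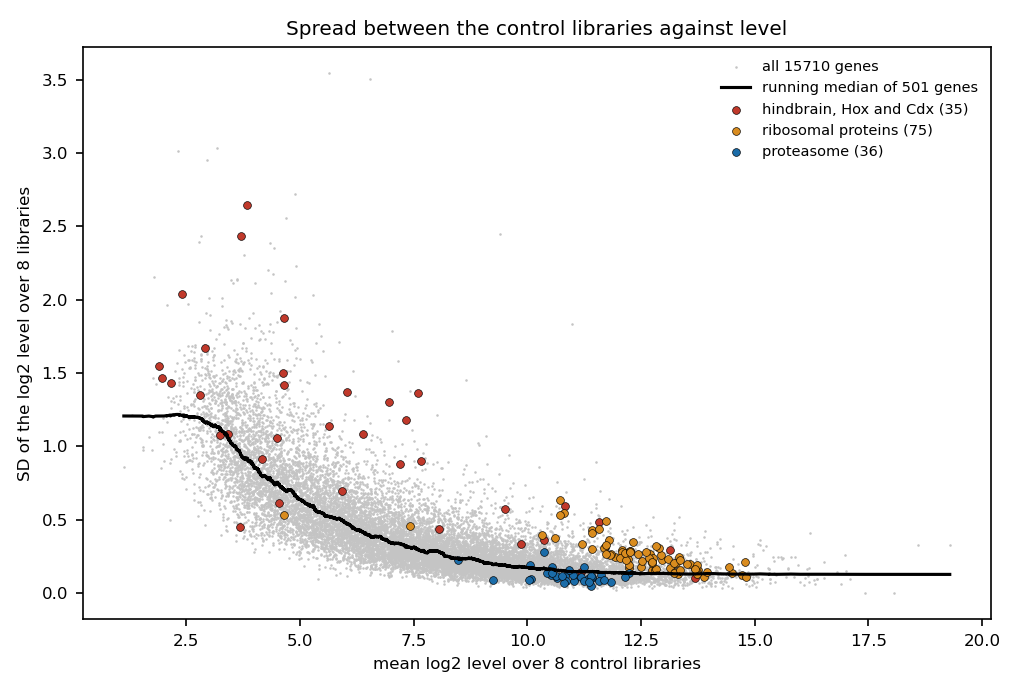
SD of the log2 level over the 8 control libraries (y axis) against the mean log2 level (x axis) for all 15710 genes (grey), with the running median over 501 genes as a line. Hindbrain, Hox and Cdx genes (35, red) lie mostly above the line, ribosomal protein genes (75, orange) mostly above it at high levels, and proteasome genes (36, blue) mostly below it.

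At the other end, the most variable named gene above the median gene was metap2a, a methionine aminopeptidase gene. Its values in replicates 1 to 8 were 11.76, 11.40, 4.94, 9.07, 11.54, 10.92, 7.85 and 7.66 (9.39 ± 2.44). The ribonucleotide reductase subunit name RRM2 matched ENSDARG00000020711, at 10.99 ± 1.83, and ENSDARG00000078069, at 13.58 ± 0.23. The heat shock genes hsp70l and HSPA2 were also variable, while the median chaperone gene had 1.11 times the SD of genes at its level. The values of hsp70l were 10.99, 9.63, 6.98, 8.92, 9.41, 9.01, 7.57 and 6.74 (8.66 ± 1.46), and HSPA2 ran from 7.33 in replicate 3 to 10.67 in replicate 1 (8.91 ± 1.02). The constitutive gene HSPA8 (ENSDARG00000068992) ran only from 16.45 to 16.75. The nuclear receptor nr2f5 ran from 6.52 in replicate 1 to 9.79 in replicate 3 (8.02 ± 1.21), in the order of the Hox genes.

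The libraries were alike, with Pearson's r across genes of 0.965 to 0.979 in the 4 pairs of the same title-number set and 0.949 to 0.972 in the other 24 pairs. Genes are not independent, so these values are a description. Replicate 1 was closest to replicate 5 and not to replicate 2 of its own set. The first principal component, with 27% of the variance, placed replicates 1, 5 and 6 on one side (33.7 to 46.5) and replicates 3, 4, 7 and 8 on the other (-34.0 to -24.8), with replicate 2 near 0 (-0.79). The estimated share of variance lying between sets was 24.7% over all genes.

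Differences between the 4 title-number sets were tested for every gene with a moderated F-test in limma, with Benjamini-Hochberg adjustment over all genes. The labels do not say whether replicates came from separate clutches, so the p-values measure only the spread between these libraries. At an adjusted p under 0.05, 55 of 15710 genes were called, which is 0.35%, and 2213 genes had an unadjusted p under 0.05. Of the 826 genes on the lists 3 were called, or 0.363%, which is near the share over all genes. None of the 35 hindbrain, Hox and Cdx genes was called, and none of the 75 ribosomal protein genes. The count depended on single libraries: it was 218 without replicate 2, 145 without replicate 3 and 95 without replicate 4. It was 23, 15, 8 and 16 without replicates 5, 6, 7 and 8 in turn, and 58 without replicate 1.

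Of the 55 called genes, 31 were lowest and 14 highest in the pair numbered 37 and 38, and 8 were lowest and 22 highest in the pair numbered 25 and 26. Such counts by pair were not made for all genes, so whether those of the 55 are unusual cannot be told. Counts by single library are another measure. Replicates 7 and 8 held the lowest value of 1681 and 1381 of all 15710 genes and the highest of 1570 and 1423. Replicates 5 and 6 held the lowest value of 1640 and 2459 genes and the highest of 1735 and 2384. The clearest call was RRM2 (ENSDARG00000020711), with 12.66, 12.15, 11.14, 11.26, 12.01 and 12.40 in replicates 1 to 6 and 7.92 and 8.39 in replicates 7 and 8. Its adjusted p in limma was 1.65e-05, and it lay between 2.25e-08 and 0.0603 over 14 other settings. The other RRM2 gene was highest in replicates 7 and 8, at 13.86 and 13.89, and the part of reads shared by both genes was not tested. The cardiac-type actin gene actc1c stood at 7.68 to 9.76 in replicates 1 to 6 and at 0.17 and 1.91 in replicates 7 and 8 (adjusted p = 0.000112 in limma). The 0.17 of replicate 7 is the lowest value of that library, where few or no reads were counted, so the size of the drop is uncertain. The integrin subunit gene ITGA11 stood at 6.81 to 7.17 and at 3.64 and 3.81 (adjusted p = 0.00326 in limma). The egg coat gene zp2.5 ran from 4.72 to 7.11 in replicates 1 to 6 and stood at 3.34 and 3.63 in replicates 7 and 8 (adjusted p = 0.0352 in limma). The call of zp2.5 was less robust, as it was made in 7 of the 14 other settings, against 13 for RRM2, actc1c and ITGA11. The fit without the filter is 1 of these settings and repeats the main fit, since the filter removed 0 genes, so its calls add no support. Centring each library on its median changed little and kept all 55 calls.

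Other called genes had a different pattern. DHRS3 (ENSDARG00000044982), of the family of retinaldehyde reductases, was at 0.90 in both replicates 5 and 6, the libraries numbered 25 and 26, and at 3.66 to 6.55 elsewhere (adjusted p = 0.0341 in limma). In replicate 6 this is the lowest value of the library, where few or no reads were counted. DHRS3 was called in 7 of the 13 other settings that included it, with an adjusted p in limma of up to 0.601. Here too the fit without the filter repeats the main fit. The other gene of that name, ENSDARG00000044803, ran only from 11.28 to 11.87. The calcium channel subunit gene CACNA2D3 stood at 8.28 to 8.63 in replicates 1 to 4 and at 6.41 to 6.70 in replicates 5 to 8 (adjusted p = 0.00341 in limma). CNTNAP2, a neurexin family gene, stood at 8.10 and 8.38 in replicates 3 and 4 and at 9.33 to 10.62 in the other 6 (adjusted p = 0.0133 in limma). No gene was called under every one of the 14 other settings, and the fit without an intensity trend called 2 genes in all.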

How the data were processed

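The authors deposited a single table of normalized log2 levels for 15710 Ensembl genes. The submitters' processing notes list HTSeq 0.11.0, limma and GRCz11. How reads were aligned, which gene models were counted, how low genes were dropped and how the values were scaled is not given in the sources used here. Only columns of the 8 controls entered the results, and the other 24 only to estimate the spread in an alternative fit. Totals cannot be had from such values, so relative depth was taken from the number of distinct values below the lower quartile of each library, 19 to 47. Means, SDs, ranks and deviations from each gene's mean were computed (Python 3.11.15, pandas 2.3.3). The moderated F-test used limma 3.58.1 in R 4.3.3 with an intensity trend. It was also run on simulated data with independent noise in each gene and library. Such data lack the shifts that many genes share here, so that run cannot speak to false calls from them. A filter at a mean of 1 removed 0 genes. The SD of a gene was divided by the running median over 501 genes of like level. Members and lists were chosen with earlier results of these data known. Of 1090 list names, 900 had a measured identifier, 306 exactly, 389 ignoring case and 205 without the paralog letter. The text names the 4 highest and 2 lowest members of a list, always 29 set genes, the extremes of level, SD and F-test p, and members ordered by role. Some such genes are left out for length, and a few are not reported here. Levels per kb were planned but no transcript lengths were used here.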

Additional observations from a re-analysis of the deposited data

Results flagged for a closer look

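A sample far from the other 7 was looked for in 204 named genes and in the median deviations of the 28 lists, with Dixon's ratio of the gap to the range against its critical value for 8 samples. Of 232 values tested, 8 passed, and chance flags about 1 in 20. Near the top of the scale neighbouring ranks have fixed values, so eef1a1l1 reached 19.4022 in replicate 1, where it held rank 1, against 18.4818 in each other library, and hnrnpa0l stood at 16.748 in replicate 7. In genes with a very small spread, sdcbp2 stood at 11.9537 in replicate 4, HDAC1 at 14.5833 in replicate 8 and FBL, the fibrillarin gene, at 14.2063 in replicate 7. The Wnt antagonist SFRP1 (ENSDARG00000035521) was lowest in replicate 6, at 12.0834, with the next at 12.3072. The fatty acid transporter gene SLC27A4 was lowest in replicate 3, at 6.0833, with the next at 7.645. The median deviation of the Wnt list was 0.1284 in replicate 4, with the next at 0.0157.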

How the results depend on the processing

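No paired analysis was possible because only the control group is described. The number of genes that differ between title-number sets was 55, 55 without the filter, 55 with each library centred on its median, 39 at a mean of at least 5, 22 without the libraries numbered 25-36, 2 without the intensity trend and 355 with the spread taken from all 32 libraries (51 of the 55 among them). The fit without the filter repeats the main fit, since the filter removed 0 genes. Leaving out each library gave 8 to 218. The median SD over genes was 0.307, against 0.277 as a scaled median absolute deviation, 0.300 without genes at a lowest value and 0.296 to 0.311 leaving out each library. The share of variance between sets was 24.7%, against 23.1% without genes at a lowest value and 17.8 to 31.3% leaving out each library. The share of the 100 highest genes was 27.8%, as before, after subtracting 1 from the linear value. The common set of values fixes this share in every library, so its constancy does not show that it is stable. The levels of the 204 named genes moved by less than their SD under the median over 8 libraries and under leaving out each library. Arithmetic alone ensures this for 8 values, so it does not show that these levels are stable. With exactly matched names only, the median level moved in 22 of 28 lists, so list medians depend on the matching. The median SD of a list moved in 19 of 28 lists with the scaled median absolute deviation and in 79 of 224 cases on leaving out a library. Levels per kb were not computed. Depth limits the low range: 330 genes were at the lowest value of at least 1 library, where a level says only that few or no reads were counted.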
